A study of Mus musculus with 78 samples.

Results

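Collagens are the triple-helical proteins that give tissues their tensile strength, and each chain is encoded by a gene of its own. The genes described here are all those in a mouse RNA-seq table whose symbol has the form of a collagen chain (Col, a type number, a and a chain number), which gave 44 of the 20673 genes listed. Of these, 38 reached a mean of at least 0.5 FPKM (fragments per kilobase of transcript, scaled for gene length and library size) in at least 1 of 4 solid tissues. The tissues were cecum, colon, hippocampus and hypothalamus of C57BL/6 mice. The study asked how a disturbed light schedule acts on gut and brain at different ages.

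Mice were labelled 18 months or 8 weeks. The control group (CON) was kept on 12 h of light and 12 h of darkness. Mice of the circadian rhythm disruption group (CRD) went through 3 stages: an inversion of the light cycle each 3 days over 4 weeks, a cycle of 48 h light and 48 h dark over 3 weeks, and 1 week of constant light. Each age, schedule and tissue was represented by 4 or 5 libraries, 74 in all, and 4 libraries of blood mononuclear cells (PBMC) came from the 18-month groups. The labels name no separate animal for each library, so p-values measure the spread between libraries, part of which may be technical. The sources used here give neither sex, the hour of collection nor a sequencing batch.

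Fibrillar collagens (types I, II, III, V and XI among them) assemble into the cross-striated fibrils of connective tissue. Type IV collagen forms the network of basement membranes under epithelia and around vessels and nerves, type VI forms beaded filaments next to cells, and type VIII forms short-chain networks. Fibril-associated collagens such as types IX, XII and XIV sit on the surface of fibrils, multiplexins (types XV and XVIII) lie in or near basement membranes, and transmembrane collagens such as types XIII, XXIII and XXV are anchored in the plasma membrane. In the gut wall most fibrillar collagen is made by fibroblasts and smooth muscle, whereas the brain holds little of it outside vessels, meninges and choroid plexus.

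In the 74 solid-tissue libraries the FPKM summed to 430706 to 590745 and 16960 to 17753 genes were above 0, and no library was a copy of another. Read counts were not among the values used, so the depth behind each value is unknown. Tissue markers followed the labels: hypothalamic peptide genes summed to at least 1383 FPKM in every hypothalamus library and to at most 39.4 in any hippocampus library. Among the hippocampus libraries, 4 stood apart: 18-month CRD replicates 1 and 4 and 8-week CRD replicates 2 and 4 held Ttr, which the choroid plexus makes in abundance, at 35.5 to 86.4 FPKM, whereas the other 15 held at least 3000. Since these are whole-tissue samples, fewer cells of a type and less RNA per cell cannot be told apart. Exons of 13 collagen genes share bases with another annotated gene, among them Col4a1 with Col4a2, Col3a1 with Gm47302 and Col9a3 with Tcfl5. The sources used here do not give the strand setting, so for these genes the reads of both partners cannot be told apart.

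The gut expressed a few fibrillar and beaded-filament collagens at high levels, whereas the brain tissues had lower levels, with other classes making up more of the sum. Summed over the 44 genes, collagen reached 83.7 to 304 FPKM in cecum libraries (median 189) and 239 to 610 in colon libraries (median 425). The sum was 43.3 to 156 FPKM in hippocampus (median 108) and 52.5 to 121 in hypothalamus (median 92.5). The 3 most abundant genes made up 47.4% of the summed level in cecum and 45.0% in colon, against 37.2% in hippocampus and 27.3% in hypothalamus. Fibrillar genes supplied 50.5% of collagen FPKM in cecum and 50.1% in colon, but 15.8% in hippocampus and 19.2% in hypothalamus. Fibril-associated genes took 31.5% in hippocampus and 24.6% in hypothalamus, and transmembrane genes 10.6% and 19.0%, against at most 1.81% for transmembrane genes in either gut tissue.

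**Figure D1:**
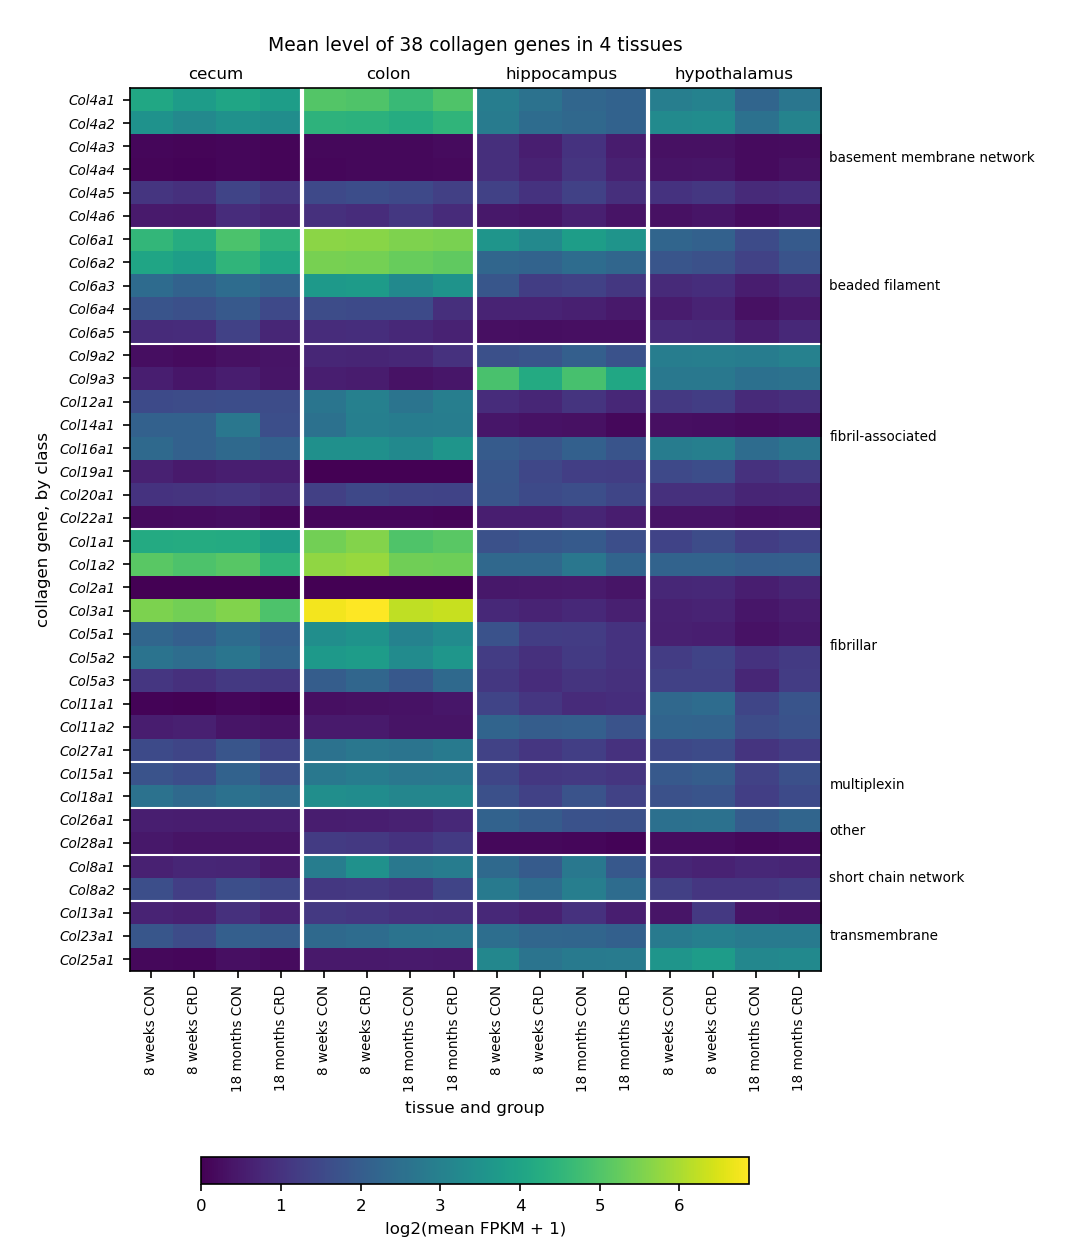
Mean level of the 38 collagen genes that reached a mean of 0.5 FPKM in a solid tissue, as log2(mean FPKM + 1) in colour, with genes in rows by class and tissue and group in columns. Col3a1 in colon is the brightest row segment, while Col9a3 and Col25a1 are bright in the brain columns and dark in the gut.

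A mean of at least 0.5 FPKM was reached by 26 of the 44 genes in cecum, 29 in colon, 33 in hippocampus and 29 in hypothalamus, and 20 reached it in all 4 tissues. Only the gut reached it for Col4a6, Col14a1 and Col28a1. Only the brain did for 9 genes: Col2a1, Col4a3, Col4a4, Col9a3, Col11a1, Col11a2, Col19a1, Col22a1 and Col25a1. In none of the 4 tissues did Col6a6, Col7a1, Col9a1, Col10a1, Col17a1 or Col24a1 reach it. Just inside and just outside the limit lay Col4a6 (0.548) and Col19a1 (0.485) in cecum, Col26a1 (0.554) and Col25a1 (0.393) in colon, Col22a1 (0.518) and Col9a1 (0.387) in hippocampus, and Col13a1 (0.513) and Col3a1 (0.485) in hypothalamus. The hypothalamic mean of Col13a1 rests on 1 library, 8-week CRD replicate 1, at 4.72 FPKM, with the other 18 at 0.15 to 0.47.

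Among the fibrillar genes, Col3a1 (type III collagen of distensible tissues) was the most abundant gut collagen, at a mean of 41.1 FPKM in cecum and 94.1 in colon, and stood at 0.64 in hippocampus and 0.485 in hypothalamus. Col1a2 and Col1a1, the chains of type I collagen, averaged 29.8 and 16.6 FPKM in cecum, 47.0 and 38.2 in colon, and 1.66 to 4.25 in the brain tissues. Type V genes, which regulate fibril diameter, ranged from 1.10 (Col5a3) to 4.68 (Col5a2) in cecum and from 3.44 (Col5a3) to 11.2 (Col5a2) in colon. Col11a1 and Col11a2, the minor fibrillar chains of cartilage, were higher in brain than gut: Col11a2 averaged 3.08 FPKM in hippocampus and 2.94 in hypothalamus against 0.41 in cecum and 0.35 in colon. These tissue means over all 4 groups are levels and were not tested across gut and brain.

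The 250 bases before the RefSeq start of Col3a1 (GRCm38.p6), the leading gut collagen, are shown. Capitals mark 1 match to the letters of the TATA box, TATAAA, which shows no function. The first base of the match lies at position -117, counted back from the base before the start, which is -1. Searched on both strands, this motif was present in 12.4% of 32851 mouse promoter windows of this length. Of the 35 collagen genes with a window, 5 had it. Some genes have several windows and were counted if any held the motif, so shares of windows and of genes are unlike measures.
Col3a1 (chr1:45311288-45311537, plus strand): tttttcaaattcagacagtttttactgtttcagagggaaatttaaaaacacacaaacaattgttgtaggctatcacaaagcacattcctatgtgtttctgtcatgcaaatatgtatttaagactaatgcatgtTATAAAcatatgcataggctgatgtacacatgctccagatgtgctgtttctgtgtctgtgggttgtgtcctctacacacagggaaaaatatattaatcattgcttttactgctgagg

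Among the beaded-filament genes, Col6a1 and Col6a2 (shared chains of type VI filaments) averaged 22.4 and 16.4 FPKM in cecum and 47.3 and 39.9 in colon, while Col6a3, their usual partner, stood at 3.94 and 10.9. In hippocampus Col6a1 kept a mean of 10.7 FPKM while Col6a2 read 3.87 and Col6a3 1.67. The basement-membrane pair Col4a1 and Col4a2 averaged 14.4 and 9.54 FPKM in cecum, 29.1 and 20.1 in colon, 4.77 and 4.58 in hippocampus, and 5.93 and 7.67 in hypothalamus. Col4a3 and Col4a4, chains best known from the glomerulus of the kidney, read 0.69 and 0.76 FPKM in hippocampus and at most 0.24 elsewhere.

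The brain tissues were led by other classes. Col9a3, a chain of fibril-associated type IX collagen of cartilage, averaged 22.5 FPKM in hippocampus and 5.35 in hypothalamus, and its partner Col9a2 read 2.52 and 6.71. Col25a1, a neuronal transmembrane collagen known for associating with amyloid deposits, averaged 6.46 FPKM in hippocampus and 10.2 in hypothalamus, where it ranked above every other collagen gene. Col23a1, also a transmembrane collagen, averaged 3.86 and 6.25 FPKM, and Col16a1, a fibril-associated chain, 2.77 and 5.82. The short-chain pair Col8a2 and Col8a1 averaged 5.31 and 3.78 FPKM in hippocampus but 1.26 and 0.64 in hypothalamus. In PBMC the summed collagen level was 4.14 to 10.2 FPKM, Col11a2 read 1.36 and 1.59 FPKM in CON and 0.75 and 1.16 in CRD, and no test was made with 2 libraries a group.

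Several pairs of collagen genes varied together from library to library within groups, and others less so. Correlations here are of log2(FPKM + 1) after taking out group means, over 18 or 19 libraries that share dissection, RNA preparation and normalization, and are descriptions with no test. For Col4a1 and Col4a2, Pearson's r was 0.98 in cecum, 0.99 in colon, 0.96 in hippocampus and 0.99 in hypothalamus, with Spearman's rho of 0.95, 0.99, 0.94 and 0.96 (0.97, 0.98, 0.95 and 0.98 for r without the 2 farthest libraries). These genes lie head to head on chromosome 8, with starts 21 bases apart on opposite strands. For the type I partners Col1a1 and Col1a2, r was 0.96 in cecum, 0.97 in colon, 0.82 in hippocampus and 0.82 in hypothalamus (rho 0.94, 0.95, 0.77 and 0.83; 0.94, 0.95, 0.78 and 0.75 for r without the 2 farthest). Col1a1 and Col3a1, fibrillar chains of different molecules, gave r of 0.95 in cecum, 0.98 in colon and 0.92 in hippocampus (rho 0.97, 0.93 and 0.90; 0.93, 0.97 and 0.88 for r without the 2 farthest). For the type VI partners Col6a1 and Col6a3, r was 0.92 in cecum and 0.88 in colon but 0.39 in hippocampus (rho 0.88, 0.76 and 0.39; 0.85, 0.82 and 0.25 for r without the 2 farthest). For Col8a1 and Col8a2, r was 0.63 in cecum, 0.72 in colon, 0.99 in hippocampus and 0.41 in hypothalamus (rho 0.51, 0.65, 0.98 and 0.04). Without the 2 farthest libraries it was 0.42, 0.51, 0.98 and 0.05. In hippocampus the 4 libraries low in Ttr were the lowest for both genes, and r without these 4 was not computed.

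Colon held more collagen transcript than cecum in control mice, across nearly every class. Of 28 collagen genes tested in the CON libraries of both tissues, 22 differed at an adjusted p under 0.05 (limma on log2(FPKM + 1), Benjamini-Hochberg over all genes), 21 higher in colon and 1 lower, against a background of 40.8% of all 14038 genes tested. Their median difference was 0.78 on the log2 scale, against -0.03 over all genes tested. All 7 fibrillar genes tested were higher in colon, as were both multiplexins, 3 of 4 fibril-associated, 3 of 4 basement-membrane and 3 of 5 beaded-filament genes. A difference on this scale understates the change of genes with low values.

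Col8a1, a short-chain network collagen made by vessel walls and other mesenchymal cells, showed the smallest p. Its level was 0.79, 0.60, 0.60 and 0.60 FPKM in 18-month CON cecum and 0.88, 0.54, 0.51, 0.26 and 0.54 in 8-week CON cecum. In colon it was 9.15, 3.49, 2.73, 3.36 and 9.69 FPKM at 18 months and 5.44, 2.86, 5.65 and 12.4 at 8 weeks. Every CON colon library lay above every CON cecum library. The difference was 2.02 ± 0.25 (SE) on the log2 scale (limma adjusted p = 1.50e-07). Col28a1, a collagen of peripheral nerve and glia, read 0.34, 0.32, 0.25 and 0.21 FPKM at 18 months and 0.42, 0.39, 0.35, 0.34 and 0.28 at 8 weeks in CON cecum. In CON colon it read 1.25, 0.97, 0.61, 0.72 and 1.42 FPKM at 18 months and 1.09, 0.92, 1.46 and 1.65 at 8 weeks, again without overlap (difference 0.68 ± 0.09, limma adjusted p = 3.95e-07). Col28a1 passed the filter, a mean over both tissues, through colon (1.17 FPKM, against 0.30 in cecum), which favours this direction.

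Other genes higher in colon were Col6a2 (1.11 ± 0.18), Col12a1 (1.05 ± 0.20), Col6a3 (1.05 ± 0.20), Col16a1 (1.03 ± 0.18), Col5a3 (0.87 ± 0.16) and Col15a1 (0.78 ± 0.14), each as a log2 difference ± SE with limma adjusted p of at most 8.25e-05. Col3a1 differed by 0.96 ± 0.24 (limma adjusted p = 0.0015) and Col1a1 by 0.99 ± 0.22. The exception was Col8a2, the partner of Col8a1, which was lower in colon by a log2 difference of -0.56 ± 0.16 (limma adjusted p = 0.0054). It read 1.55, 3.45, 1.51 and 1.96 FPKM in 18-month CON cecum against 1.47, 1.24, 0.91, 0.55 and 0.98 in 18-month CON colon, and 1.52 to 3.51 against 0.94 to 1.45 at 8 weeks. So the members of this pair differed between the gut tissues in opposite directions. The values above come from a fit that did not pair cecum and colon libraries. With the replicate number shared by cecum and colon as a block, all 22 stayed called. Col13a1 (limma adjusted p = 0.012) and Col14a1 (limma adjusted p = 0.039) were called as well, giving 24.

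Genes that make and remodel collagen were also counted, beside 40.8% of all genes called in this comparison, 2725 higher and 2998 lower in colon. Of the folding and modification list, 16 of 19 genes tested were higher in colon and 0 lower, led by Mia3 (0.75 ± 0.07 log2), which loads collagen into export carriers, and Kdelr3 (1.83 ± 0.17). For propeptide removal and fibril assembly it was 7 of 9, with Lum, the fibril-binding proteoglycan lumican, at 1.61 ± 0.22. Cross-linking genes were higher in 3 of 5 (Lox, 0.71 ± 0.16), metalloproteinase inhibitors in 4 of 4, receptors in 6 of 9 (Adgrg1, a receptor for type III collagen, 1.12 ± 0.10), other basement-membrane proteins in 10 of 13, and TGF-beta and mechanical signalling genes in 5 of 10. The breakdown list split, with 4 of 9 higher (Mmp2, a gelatinase, 0.85 ± 0.14) and Mmp9, another gelatinase, lower (-0.65 ± 0.14). Fibroblast markers also moved: 7 of 7 were higher in colon (median 0.98), and their summed level was 137 to 384 FPKM in CON cecum and 228 to 639 in CON colon. Of the smooth muscle markers 1 of 6 was higher, of the gut epithelium markers 0 of 6, and T and B cell markers were lower in 4 of 4. Enteric glia and neuron markers summed to 6.91 to 16.9 FPKM in CON cecum and 21.3 to 38.2 in CON colon, without overlap. Lum is on both the assembly list and the fibroblast list. The part of the cells behind any of these marker lists in the collagen difference was not tested.

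**Figure D2:**
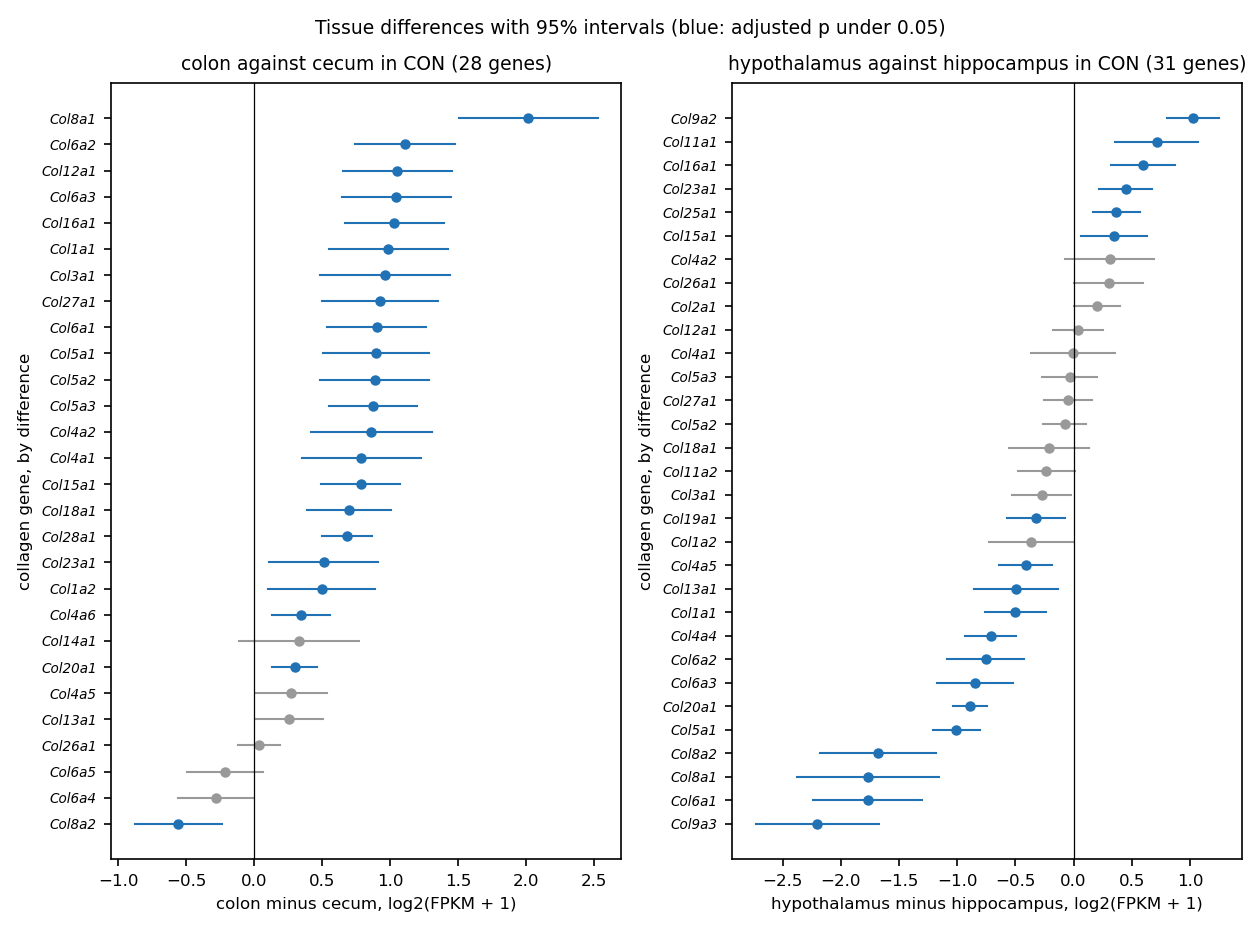
Differences between tissues in CON libraries with 95% intervals, on the log2(FPKM + 1) scale, for 28 collagen genes in gut (left) and 31 in brain (right), blue where the adjusted p was under 0.05. In gut, 21 blue genes lie right of 0 and Col8a2 left of it, while in brain 6 lie right and 13 left, with Col9a3 at -2.20.

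Col19a1, a fibril-associated chain known in muscle and neurons, was outside this test because its gut mean was under 0.5 FPKM, and it was singled out after its values were seen. It was at 0.10 to 0.94 FPKM in the 18 cecum libraries and at 0 to 0.02 in the 18 colon libraries, with no overlap.

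Hypothalamus and hippocampus differed in which collagens they expressed. Of 31 collagen genes tested in CON libraries, 19 differed (limma adjusted p under 0.05), 6 higher and 13 lower in hypothalamus, against a background of 61.3% of 14500 genes. The share of collagen genes called was thus that of all genes. The median difference was -0.24 on the log2 scale, against 0.08 over all genes. Higher in hypothalamus were Col9a2 (1.02 ± 0.11, limma adjusted p = 4.27e-10), Col11a1 (0.71 ± 0.18), Col16a1 (0.60 ± 0.13), Col23a1 (0.45 ± 0.11), Col25a1 (0.37 ± 0.10) and Col15a1 (0.35 ± 0.14). Lower were all 3 beaded-filament genes tested (Col6a1, Col6a2 and Col6a3) and both short-chain genes.

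Col20a1, a little-studied fibril-associated chain, had the smallest p. It read 2.18, 2.37, 1.85 and 2.09 FPKM in 18-month CON hippocampus and 2.53, 3.12, 2.38, 2.25 and 2.21 at 8 weeks. In CON hypothalamus it read 0.72, 0.56, 0.62 and 0.63 FPKM at 18 months and 1.03, 1.10, 0.87, 1.01 and 0.71 at 8 weeks. No hypothalamus library reached a hippocampus library, and the difference was -0.89 ± 0.07 (limma adjusted p = 2.21e-13). Col5a1 followed, at 1.55, 1.65, 0.72 and 1.40 FPKM in 18-month CON hippocampus and 2.13, 3.20, 2.07, 1.77 and 2.57 at 8 weeks. In CON hypothalamus it was at 0.35, 0.24, 0.23 and 0.20 FPKM at 18 months and 0.76, 0.72, 0.44, 0.47 and 0.19 at 8 weeks. Within each age the tissues did not overlap, and the difference was -1.01 ± 0.10 (limma adjusted p = 6.11e-11).

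The largest differences among the 31 genes were those of Col9a3 (-2.20 ± 0.26), Col6a1 (-1.77 ± 0.23), Col8a1 (-1.77 ± 0.30) and Col8a2 (-1.68 ± 0.25), all lower in hypothalamus. Col4a4 was lower by a log2 difference of -0.71 ± 0.11. The filter used the mean over both tissues. Col4a4 and Col5a1 passed it through hippocampus, with hypothalamus means of only 0.24 and 0.41 FPKM, which favours this direction. With some single libraries left out, Col4a4 was not among the called genes. Choroid plexus markers moved with them: 6 of 7 were lower in hypothalamus (median -3.89), with a summed level of 17.5 to 42.1 FPKM in CON hypothalamus and 3066 to 9913 in CON hippocampus. Leptomeninges markers were lower in 7 of 8, at 17.7 to 55.0 FPKM against 56.5 to 191. The part of either tissue in these collagen differences was not tested.

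The genes around collagen are given beside 61.3% of all genes called, 5639 higher and 3254 lower in hypothalamus (4334 and 4103 under median-of-ratios scaling). In the folding list 7 of 20 were higher in hypothalamus and 3 lower, a smaller share than the background, led by P4ha3, a prolyl hydroxylase subunit (1.15 ± 0.09 log2). In the assembly list 2 of 11 were higher and 8 lower: Sparc, a collagen-binding matricellular protein, was higher by 2.75 ± 0.09, and the proteoglycan genes Dcn (-2.17 ± 0.21) and Lum (-1.52 ± 0.16) were lower. All 3 cross-linking genes tested were lower, 3 of 4 metalloproteinase inhibitors were higher, and receptors had 2 higher (Adgrg1, 1.09 ± 0.06) and 2 lower of 6. The breakdown list had 2 higher and 3 lower of 6. Other basement-membrane proteins were lower in 8 of 12 and higher in 1, and TGF-beta and mechanical signalling genes lower in 7 of 10 and higher in 1. Dcn and Lum are also on the fibroblast marker list, of which 3 of 5 were lower and 1 higher.

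In the cecum, circadian disruption was accompanied by lower fitted levels of collagen genes, but no gene passed the test. At 18 months 0 of 26 collagen genes were called (limma, adjusted p under 0.05), against a background of 0.0291% of 13747 genes. An unadjusted p under 0.05 was reached by 2 of the 26, both lower, and by 2236 of all genes. The fitted CRD difference was above 0 for 0 of the 26, against 31.2% of all genes, with a median of -0.29 against -0.10 on the log2 scale. Many collagen genes vary together between libraries (r of 0.95 for Col1a1 and Col3a1 in cecum). Their signs therefore do not count separately, here or in the comparisons below. Scaling each library by median of ratios moved the all-gene median of this comparison by 0.11 and gave a collagen median of -0.22. Fibroblast markers stood at 94.6 to 198 FPKM in 18-month CRD cecum against 198 to 293 in CON, with a lower fitted level for 7 of 7 and none called. Endothelium markers stood at 12.6 to 20.0 against 21.4 to 32.9. Smooth muscle markers had fitted differences above 0 in 0 of 6 (median -0.41) and sums of 1363 to 4156 FPKM against 2340 to 4463, and gut epithelium markers above 0 in 6 of 6 (median 0.21), at 5596 to 7355 against 4880 to 5736. None was called. Their part in the collagen values was not tested.

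Col3a1 in cecum read 30.1, 65.9, 59.1 and 32.3 FPKM in 18-month CON and 40.4, 25.4, 23.4 and 30.1 in 18-month CRD. The groups overlapped, with CON replicates 2 and 3 above every CRD library, and the difference of -0.58 had a 95% interval from -1.29 to 0.13. Col1a2 read 21.3, 44.0, 39.6 and 26.6 FPKM in CON and 28.5, 22.0, 16.5 and 20.2 in CRD, with the same CON libraries highest. Col6a1 read 19.7, 36.4, 36.2 and 25.0 FPKM in CON and 20.5, 20.8, 13.7 and 29.0 in CRD, which also overlapped.

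Col14a1, a fibril-associated collagen of dense connective tissue, had the smallest p in 18-month cecum. It read 4.66, 4.61, 5.61 and 7.35 FPKM in CON and 2.29, 2.50, 2.37 and 1.38 in CRD. Every CRD library lay below every CON library, and the difference was -1.06 ± 0.33 (limma adjusted p = 0.193). Col6a5 (-0.52 ± 0.24) and Col15a1 (-0.42 ± 0.22) came next. At 8 weeks Col14a1 overlapped fully (0.87 to 5.35 FPKM in CON, 1.33 to 4.92 in CRD). The CRD effect on Col14a1 differed between ages by -1.11 ± 0.44 (limma adjusted p = 0.246). For this difference between ages 0 of 26 collagen genes were called, against 0.0364% of all genes, and 1 had an unadjusted p under 0.05. Col8a1 (-0.34 ± 0.17) and Col6a5 (-0.51 ± 0.32) came next.

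At 8 weeks 0 of 26 collagen genes were called in cecum, against a background of 0.00727%, and 0 reached an unadjusted p under 0.05. The median stood at -0.16 against 0.02 over all genes, and 4 of 26 had a fitted difference above 0. Smooth muscle markers were above 0 in 0 of 6 (median -0.55; sums of 729 to 4103 FPKM in CRD and 1932 to 4969 in CON), pericyte markers in 1 of 5 (median -0.37; 22.9 to 69.8 against 62.3 to 117) and fibroblast markers in 2 of 7 (median -0.07), with none called. Their part in the collagen values was not tested. Col3a1 read 66.7, 36.2, 47.6, 29.9 and 44.9 FPKM in CON and 38.6, 65.1, 53.6, 32.0 and 19.1 in CRD. Its groups overlapped over most of their range. Col1a2 read 51.9, 25.8, 35.3, 25.2 and 30.2 FPKM in CON and 27.0, 44.1, 38.3, 27.1 and 13.7 in CRD. Col6a1 read 30.0, 19.1, 22.7, 18.6 and 21.1 in CON and 16.1, 26.3, 22.8, 16.6 and 8.62 in CRD. In each of these genes CRD replicate 5 was the lowest library. Col8a2 (-0.41 ± 0.23), Col6a1 (-0.35 ± 0.25) and Col18a1, the source of endostatin (-0.28 ± 0.21), had the smallest p (limma adjusted p = 0.897 each).

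In the colon the collagen genes showed no common direction under disruption. At 18 months 0 of 29 were called, against a background of 0.54% of 14072 genes, with 1 unadjusted p under 0.05, and 17 of 29 fitted differences were above 0 (median 0.08, against -0.04 over all genes). Col3a1 read 72.0, 69.7, 79.7, 39.0 and 109 FPKM in CON and 75.5, 44.3, 84.2 and 109 in CRD. These ranges were nearly the same, and the 95% interval of the difference ran from -0.59 to 0.75 on the log2 scale. Col6a1 read 43.4, 42.1, 56.1, 36.7 and 50.7 FPKM in CON and 39.2, 29.7, 45.5 and 62.3 in CRD. Col1a2 read 37.1, 39.3, 43.4, 30.7 and 53.4 in CON and 37.4, 28.7, 43.1 and 49.6 in CRD. In both, CRD replicate 3 was the lowest library of all 9. Smooth muscle markers summed to 2553 to 15419 FPKM in the CRD libraries against 2616 to 5105 in CON, and their part in these values was not tested.

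Col6a4, a minor beaded-filament chain, had the smallest p in 18-month colon. It read 1.17, 1.79, 2.48, 2.80 and 1.47 FPKM in CON and 1.31, 0.58, 1.12 and 0.61 in CRD. The highest CRD library lay above the lowest CON library, and the difference was -0.62 ± 0.18 (limma adjusted p = 0.109). Col8a2 (0.37 ± 0.18) and Col5a3 (0.39 ± 0.23) followed with higher fitted levels. At 8 weeks 0 of 29 were called, against 0.0142%, with 0 unadjusted p under 0.05, and the median was 0.02. Col3a1 read 109, 82.1, 112 and 126 FPKM in 8-week CON colon and 151, 152, 122, 106 and 51.9 in CRD, so that CRD held both the highest and the lowest library. Col6a1 (27.8 to 59.7 FPKM in CRD, 41.5 to 55.7 in CON) and Col1a2 (28.9 to 68.4 against 40.6 to 58.6) showed the same order. Col14a1 (0.40 ± 0.28), Col20a1 (0.18 ± 0.14) and Col8a1 (0.48 ± 0.47) had the smallest p. The CRD effects at the 2 ages differed for 0 of 29, against 0.37% of all genes, with Col6a4 at -0.57 ± 0.26 (limma adjusted p = 0.457) and 1 unadjusted p under 0.05. Col8a2 (0.38 ± 0.26) and Col4a5 (-0.33 ± 0.23) followed. In these comparisons median-of-ratios scaling moved the all-gene median of the difference between ages by 0.12 in colon and in cecum.

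**Figure D3:**
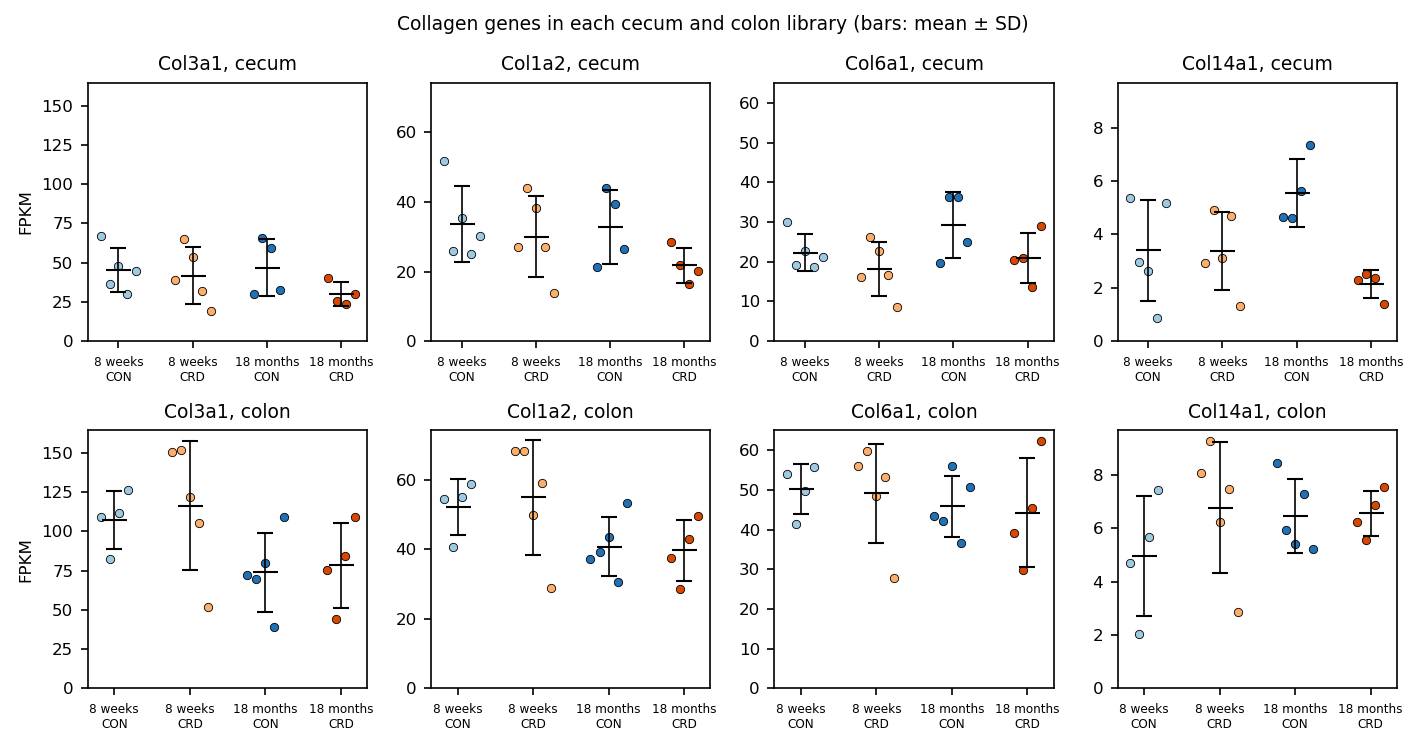
FPKM of Col3a1, Col1a2, Col6a1 and Col14a1 in every cecum (top) and colon (bottom) library, by age and schedule, with the group mean and SD as bars and 1 scale per gene. The groups overlap except for Col14a1 in 18-month cecum, where CRD libraries sit at 1.38 to 2.50 and CON libraries at 4.61 to 7.35.

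In the hippocampus, fitted collagen levels were lower in CRD mice at both ages, again without a called gene. At 18 months 0 of 33 were called, against a background of 0% of 14313 genes. An unadjusted p under 0.05 was reached by 8 of the 33, all lower, and by 749 of all genes. The fitted difference was above 0 for 2 of 33 genes (44.9% of all genes), with a median of -0.20 against -0.02. These signs do not count separately either (r of 0.96 for Col4a1 and Col4a2 in hippocampus). At 8 weeks 0 of 33 were called, against a background of 0%, and the median was -0.28 against -0.05. An unadjusted p under 0.05 was reached by 6 of the 33, all lower, and by 2948 of all genes. The difference between ages was called for 0 of 33, against 0.021%, with 1 unadjusted p under 0.05 (Col25a1, 0.56 ± 0.22, limma adjusted p = 1.00). Col9a2 (-0.50 ± 0.25) and Col19a1 (0.32 ± 0.20) were next.

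Some of these genes were lowest in the 4 low-Ttr libraries, which are all CRD. In those 4, Col4a3, Col4a4, Col8a1, Col8a2 and Col9a3 lay wholly below the other 15 libraries. The remaining collagen genes tested overlapped. The share of all genes with such a split was not computed, so these values describe single genes and not collagen genes as a set. Col8a1 stood at 0.10 to 0.40 FPKM in the 4 libraries and at 1.79 to 6.93 in the others, Col8a2 at 0.77 to 1.72 against 3.34 to 7.96. The lowest of the other 15 for Col8a1, Col8a2 and Col9a3 was 8-week CON replicate 4, the library with the next lowest Ttr, at 3000 FPKM. Choroid plexus markers as a list summed to 46.3 to 7410 FPKM in 18-month CRD and 6316 to 8604 in CON (52.3 to 12444 and 3066 to 9913 at 8 weeks), and 18-month leptomeninges markers to 16.9 to 128 against 101 to 191. Their part in the collagen values was not tested.

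Col9a3, the leading hippocampal collagen, read 31.6, 30.4, 25.6 and 25.5 FPKM in 18-month CON and 6.33, 27.8, 18.2, 4.60 and 24.4 in CRD. At 8 weeks it read 32.7, 37.7, 36.6, 13.5 and 24.7 in CON and 24.7, 6.17, 24.6, 6.80 and 25.5 in CRD. The low-Ttr libraries were the 4 lowest at 4.60 to 6.80 FPKM, and the remaining CRD libraries overlapped CON. The fitted differences were -1.04 ± 0.49 (limma adjusted p = 0.812) and -0.85 ± 0.46 (limma adjusted p = 0.292). Col6a1 behaved otherwise: it read 22.2, 14.4, 4.12 and 12.0 FPKM in 18-month CON, 15.1, 13.6, 12.0, 6.67 and 6.40 in CRD, and 9.39 to 12.2 against 5.10 to 12.9 at 8 weeks, and the low-Ttr libraries were spread over that range. Without the 4 libraries 0 of 33 were called at either age, against 1 of 14322 genes at 18 months and 0 at 8 weeks. The medians were -0.17 at 18 months and -0.15 at 8 weeks, each against -0.02 over all genes. Fitted differences were above 0 for 0 of 33 genes at 18 months (43.8% of all genes). At 8 weeks they were above 0 for 8 of 33 (42.8%).

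**Figure D4:**
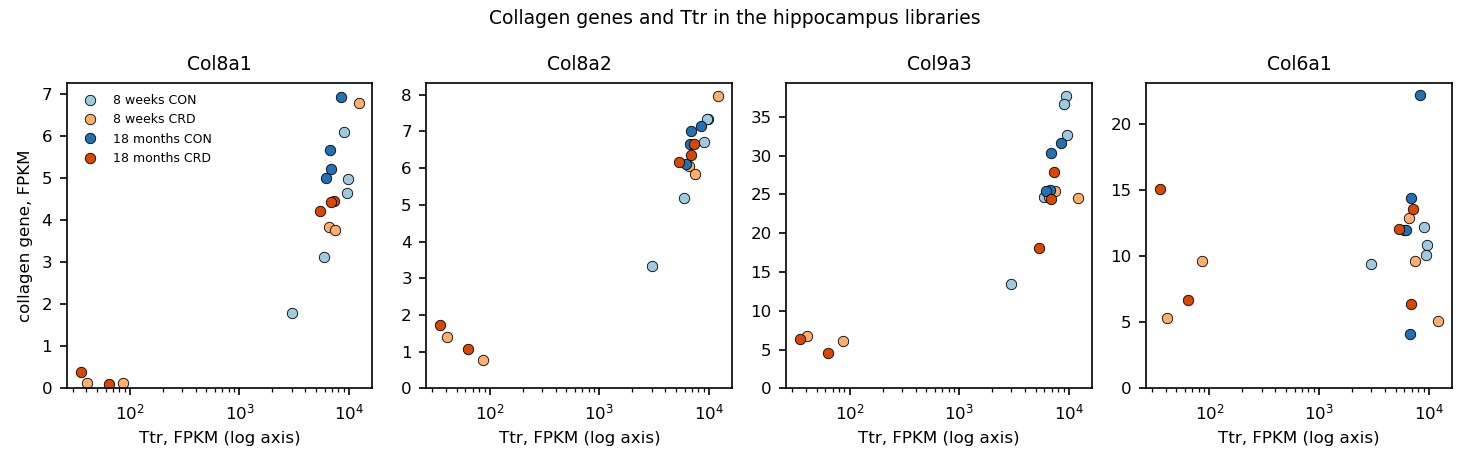
FPKM of Col8a1, Col8a2, Col9a3 and Col6a1 (vertical) against Ttr (horizontal, log axis) in the 19 hippocampus libraries, coloured by age and schedule. The 4 CRD libraries with Ttr at 35.5 to 86.4 FPKM are the lowest for Col8a1, Col8a2 and Col9a3 but not for Col6a1.

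The 250 bases before the RefSeq start of Col8a1 are shown because this gene varied most closely with its partner in hippocampus and differed most between gut tissues. Capitals mark 4 GC boxes, a motif spelled GGGCGG that lies here on the opposite strand in each case, at positions -170, -73, -66 and -23. On both strands this motif was present in 32.7% of all promoter windows and, counted by gene, in 21 of the 35 collagen genes with a window.
Col8a1 (chr16:57754738-57754987, minus strand): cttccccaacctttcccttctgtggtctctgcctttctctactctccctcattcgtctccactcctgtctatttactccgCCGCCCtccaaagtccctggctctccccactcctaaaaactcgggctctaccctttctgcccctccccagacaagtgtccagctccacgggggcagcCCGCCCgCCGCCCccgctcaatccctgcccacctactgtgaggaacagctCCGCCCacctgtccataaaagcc

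Col25a1 did not follow Ttr. In 8-week hippocampus it read 7.32, 10.1, 7.82, 7.78 and 7.60 FPKM in CON and 5.89, 3.51, 4.71, 5.92 and 6.24 in CRD. Every CRD library lay below every CON library, and the difference was -0.56 ± 0.15 (limma adjusted p = 0.167). At 18 months it read 5.88, 6.37, 4.98 and 7.34 in CON and 7.76, 8.43, 5.14, 5.26 and 4.65 in CRD, with CRD both highest and lowest. Col5a1 (-0.48 ± 0.16) and Col19a1 (-0.37 ± 0.14) came next at 8 weeks, and Col16a1 (-0.36 ± 0.14), Col4a3 (-0.53 ± 0.22) and Col4a4 (-0.48 ± 0.20) had the smallest p at 18 months.

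In the hypothalamus, fitted collagen levels leaned slightly higher in CRD. At 18 months 0 of 29 were called, against a background of 0.0277% of 14437 genes, with 1 unadjusted p under 0.05, and 25 of 29 fitted differences were above 0 (59.7% of all genes; median 0.13 against 0.03). At 8 weeks 0 of 29 were called, against 0%, with 0 unadjusted p under 0.05 and a median of 0.08. The effects at the 2 ages differed for 0 of 29, against 0.0485%, with 0 unadjusted p under 0.05 and Col5a3 (0.43 ± 0.24), Col6a2 (0.46 ± 0.28) and Col8a2 (0.31 ± 0.19) first. Col5a3, a chain of type V collagen, had the smallest p at 18 months (0.44 ± 0.17, limma adjusted p = 0.322), and Col6a2 (0.39 ± 0.21) and Col6a5 (0.22 ± 0.15) followed. At 8 weeks it was Col25a1 (0.21 ± 0.10), then Col1a1 (0.22 ± 0.14) and Col13a1, whose difference of 0.44 rests on the 1 library named above.

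The 18-month CRD hypothalamus libraries fell apart into replicates 1 to 3 and replicates 4 and 5 for several genes. Col4a2 read 9.69, 8.49, 12.3, 3.30 and 3.06 FPKM there, and 5.99, 5.92, 3.23 and 4.56 in 18-month CON. Col5a3 read 1.59, 1.73, 1.94, 0.64 and 0.75 against 0.76, 0.68, 0.58 and 0.67. In both genes replicates 1 to 3 lay above every 18-month CON library and replicates 4 and 5 near or within their range. At 8 weeks Col4a2 read 10.5, 10.3, 10.6, 7.83 and 4.51 FPKM in CON and 9.13, 8.01, 10.0, 7.67 and 10.7 in CRD, so 8-week CON replicate 5 was the lowest. Col9a2, by contrast, varied less, at 7.55, 6.41, 5.53 and 5.93 FPKM in 18-month CON, 5.77, 8.59, 8.14, 6.65 and 6.63 in CRD, and 5.45 to 7.50 at 8 weeks.

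With age, collagen genes were called only in the hypothalamus among the 4 tissues, and each was lower at 18 months. In CON, 3 of 29 collagen genes were called, all lower, against a background of 9.95% of all genes, and in CRD 2 of 29, both lower, against 12.3%. The share called was close to the background in CON and under it in CRD, where the count is small. An unadjusted p under 0.05 was held by 14 collagen genes in CON and 8 in CRD, beside 4708 and 4924 of all 14437 genes. All of these collagen genes were lower, and the medians were -0.31 and -0.23 against -0.04 and -0.03 over all genes. Collagen genes that vary together, such as Col4a1 and Col4a2, do not count separately. Of the 29, 2 had a fitted age difference above 0 in CON and 4 in CRD, against 42.4% and 44.1% of all genes.

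Col25a1 read 10.9, 12.0, 11.1, 11.8 and 9.05 FPKM in 8-week CON and 8.46, 9.25, 7.03 and 7.32 at 18 months. Only 8-week replicate 5 lay below the highest 18-month library. The age difference was -0.41 ± 0.11 (limma adjusted p = 0.030). In CRD it read 11.5, 14.8, 13.3, 11.0 and 13.5 FPKM at 8 weeks and 10.0, 8.46, 10.0, 7.71 and 7.16 at 18 months, with no overlap, and differed by -0.52 ± 0.10 (limma adjusted p = 0.0062).

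Col11a2 read 4.17, 3.48, 5.18, 3.12 and 2.25 FPKM in 8-week CON and 2.38, 2.12, 1.51 and 2.18 at 18 months. Again 8-week replicate 5 was the 1 library within the older range. The age difference was -0.58 ± 0.16 (limma adjusted p = 0.031). In CRD it read 3.07, 3.78, 3.58, 3.52 and 3.90 FPKM at 8 weeks and 2.95, 2.34, 2.96, 1.72 and 1.73 at 18 months, with no overlap, and differed by -0.47 ± 0.15 (limma adjusted p = 0.044). Col5a3 in CON read 1.98, 1.58, 1.73, 1.54 and 0.77 FPKM at 8 weeks and 0.76, 0.68, 0.58 and 0.67 at 18 months, with no overlap (-0.57 ± 0.17, limma adjusted p = 0.046). In CRD, where 18-month replicates 1 to 3 were high, it was not called, and Col19a1 came next to Col11a2 (-0.54 ± 0.18, limma adjusted p = 0.052). Whether the age effects differ between schedules is the difference between CRD effects given above, in which none was called.

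These counts depended on single libraries. The CON count was 0 without 18-month replicate 3 or 4, or without 8-week replicate 1, 2, 3 or 4, 1 without 18-month replicate 2 and 2 without 18-month replicate 1, but 14 without 8-week replicate 5, the low library. The count of all genes moved with it: 1.29% to 5.20% were called in the fits with 0 to 2 collagen genes, and 27.6% in the fit with 14 of 29 (48.3%). The CRD count was 1 without 18-month replicate 2, 4 or 5 or 8-week replicate 2, 3 or 5, 4 without 18-month replicate 1 or 8-week replicate 4, and 6 without 18-month replicate 3. In the fit with 6 collagen genes (20.0% of those tested) 20.8% of all genes were called, and in the fits with 1 it was 2.58% to 8.84%. Where the CRD count was 1, the gene was Col25a1. Where Col25a1, Col11a2 and Col5a3 lost their call in CON, their log2 differences were still -0.36 to -0.62.

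**Figure D5:**
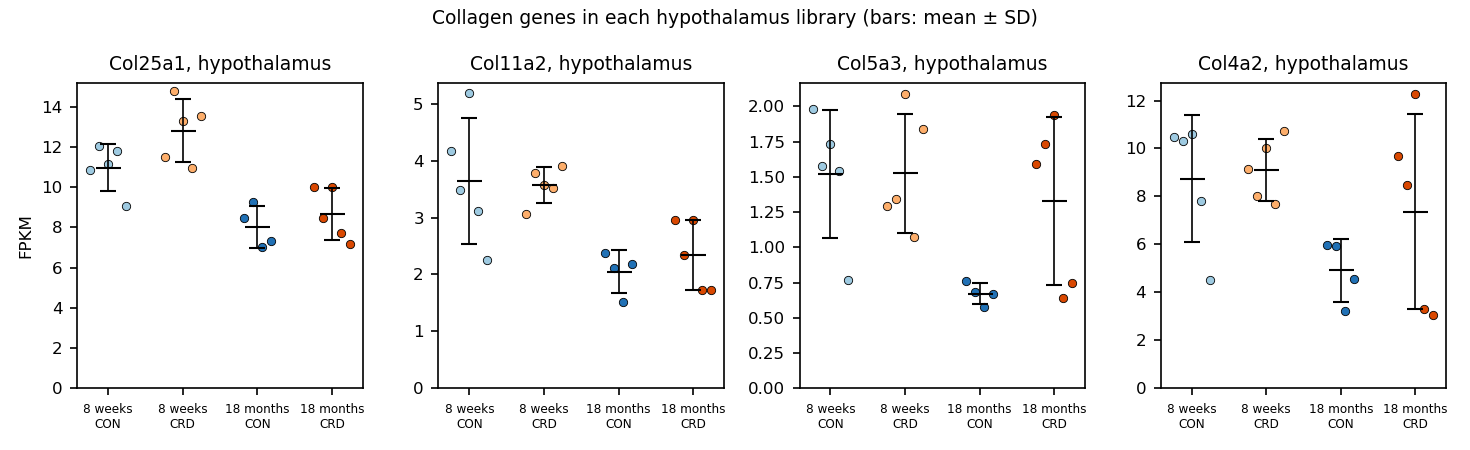
FPKM of Col25a1, Col11a2, Col5a3 and Col4a2 in every hypothalamus library by age and schedule, with the group mean and SD as bars. 8-week CON replicate 5 is the lowest of its group in all 4 panels, and 18-month CRD replicates 4 and 5 sit at 0.64 and 0.75 FPKM for Col5a3 against 1.59 to 1.94 in replicates 1 to 3.

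The 250 bases before the RefSeq starts (GRCm38.p6) of the 3 genes called with age in the hypothalamus are shown for comparison. Capitals mark matches to the letters of the TATA box, the GC box on either strand and the CCAAT box, whose letters are CCAAT. Searched on both strands, the last occurred in 33.8% of all promoter windows and, counted by gene, in 13 of 35 collagen genes with a window. The Col25a1 window holds a CCAAT box at -191 and GC boxes at -114 and -40. In the Col11a2 window the TATA box letters lie at -143 and GC boxes at -133 and -38. The Col5a3 window holds a CCAAT box at -122 and GC boxes at -63 and -41. All 3 thus hold at least 1 pair of GC boxes, which describes these letters and shows no binding. Windows of other collagen genes, such as Col5a1 and Col9a2, hold a pair too, and the share over all windows was not counted.
Col25a1 (chr3:130180595-130180844, plus strand): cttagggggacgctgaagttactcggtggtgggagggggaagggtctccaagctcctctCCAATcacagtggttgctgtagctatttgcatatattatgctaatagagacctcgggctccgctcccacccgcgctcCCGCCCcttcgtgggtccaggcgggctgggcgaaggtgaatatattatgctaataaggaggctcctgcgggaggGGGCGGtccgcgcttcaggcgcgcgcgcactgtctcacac
Col11a2 (chr17:34038888-34039137, plus strand): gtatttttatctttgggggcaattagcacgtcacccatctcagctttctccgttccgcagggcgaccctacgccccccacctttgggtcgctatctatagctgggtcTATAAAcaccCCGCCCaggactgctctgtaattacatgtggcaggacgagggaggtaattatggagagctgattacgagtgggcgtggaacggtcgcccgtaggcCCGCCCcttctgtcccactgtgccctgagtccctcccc
Col5a3 (chr9:20815068-20815317, minus strand): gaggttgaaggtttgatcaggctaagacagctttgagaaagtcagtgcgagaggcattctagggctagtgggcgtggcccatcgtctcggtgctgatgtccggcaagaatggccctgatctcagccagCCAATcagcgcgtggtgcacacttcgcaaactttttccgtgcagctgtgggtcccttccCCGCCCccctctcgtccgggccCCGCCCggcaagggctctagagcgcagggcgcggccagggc

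Genes around collagen in the hypothalamus were called with age in numbers close to the background of 9.95% in CON and 12.3% in CRD. In CON, Adamts2 (-0.33 ± 0.08 log2) and Bmp1 (-0.54 ± 0.16), which remove procollagen propeptides, fell, 2 of 12 tested in their list. Among other basement-membrane proteins Agrn and Lama5 fell (2 of 11), among receptors Ddr1, a collagen-binding kinase (1 of 6), while the inhibitor Timp1 rose (0.62 ± 0.12, 1 of 4). In CRD, Plod2 (-0.47 ± 0.13) and Serpinh1 (-0.45 ± 0.13), the collagen chaperone Hsp47, fell, 2 of 20 in the folding list, as did Bmp1, Itgb1 and Nid1, and Timp1 (0.42 ± 0.12) and Tgfb1 (0.42 ± 0.11) rose. Vessel markers moved too: in CRD 3 of 5 pericyte markers and 1 of 6 endothelium markers were lower at 18 months, with pericyte sums of 11.9 to 16.4 FPKM at 18 months and 18.1 to 28.0 at 8 weeks. In CON pericyte sums were 12.2 to 19.0 and 18.1 to 26.0, with none called. Their part in the collagen decrease was not tested.

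The CON libraries used for age are also those of the CRD comparisons, so both kinds of comparison share them. In the other tissues no collagen gene was called with age. In hippocampus 0 of 33 were called in CON, against a background of 0.468%. An unadjusted p under 0.05 was reached by 8 of the 33, 7 of them lower, and by 2526 of all genes. Col19a1 read 2.43, 3.13, 2.38, 2.59 and 2.44 FPKM in 8-week CON and 1.53, 1.89, 0.86 and 1.46 at 18 months, without overlap (-0.58 ± 0.14, limma adjusted p = 0.078), and Col5a1 (-0.53 ± 0.17) and Col4a1 (-0.65 ± 0.22) followed. Without the low-Ttr libraries, which are in none of these CON groups but share their estimate of spread, Col19a1 and Col5a1 were called. In that fit 6.98% of all genes were called, against 6.06% of the collagen genes. In CRD 0 of 33 were called, against 0.769%, with 1 unadjusted p under 0.05 and Col4a1 (-0.45 ± 0.20), Col26a1 (-0.27 ± 0.14) and Col19a1 (-0.25 ± 0.14) first. Of the genes around collagen, Sparc rose there (0.49 ± 0.11, limma adjusted p = 0.045), 1 of 11 tested in its list. No other listed gene was called with age in hippocampus, cecum or colon, and none for the CRD schedule in any of the 4 tissues.

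In cecum 0 of 26 were called with age in CON, against 1.51%. The 2 with an unadjusted p under 0.05 (2340 over all genes) were both higher, Col4a6 (0.37 ± 0.15) and Col14a1 (0.68 ± 0.31). Col4a5 came next (0.36 ± 0.19). In CRD 0 of 26 were called, against 0.771%, with 0 unadjusted p under 0.05 and Col8a1 (-0.24 ± 0.12), Col4a6 (0.23 ± 0.15) and Col23a1 (0.40 ± 0.27) first. In colon 0 of 29 were called in CON, against 0.981%, with 0 unadjusted p under 0.05, and Col3a1 had the smallest p (-0.59 ± 0.32, limma adjusted p = 0.372). By library Col3a1 in CON colon ran from 82.1 to 126 FPKM at 8 weeks and from 39.0 to 109 at 18 months. Col1a2 (-0.36 ± 0.22) and Col5a2 (-0.42 ± 0.27) followed. In CRD 0 of 29 were called, against 0.377%. The 2 with an unadjusted p under 0.05 (1404 over all genes) were both lower, Col6a4 (-0.62 ± 0.18, limma adjusted p = 0.189) and Col4a5 (-0.36 ± 0.16). Col1a2 came next (-0.42 ± 0.22).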

How the data were processed

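Polyadenylated RNA of 78 libraries was measured by RNA-seq, and the values used are the FPKM per gene that the authors deposited, rounded to 2 decimals. HISAT2, Bowtie2, RSEM, DESeq2 and the build GRCm38 are named in the submitters' processing notes, with versions, strand setting and filters not given in the sources used here. Without counts, the depth and its sampling error are unknown, and a value near 0 has few distinct steps.

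Groups were taken from the labels. In each tissue, genes averaging 0.5 FPKM or more were fitted on log2(FPKM + 1) with limma 3.58.1 (R 4.3.3, 4 group means, intensity trend). Cecum with colon, and hippocampus with hypothalamus, were fitted as 8 groups, and the CON groups of both ages were averaged. In these fits the filter used the mean over both tissues. P-values were Benjamini-Hochberg adjusted over all genes tested, and a gene was called at an adjusted p under 0.05. The procedure was tested on simulated data with changes larger than most of those reported here and noise independent between genes. That test does not cover small changes or genes that vary together. The collagen genes, gene lists and tests were chosen with earlier results of these data known.

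Named are the 6 most abundant collagen genes per tissue and, per comparison, the called ones (the 8 of smallest p if more) or the 3 of smallest p where fewer than 3 were called. Values per library are given for the 3 most abundant genes and the 2 called genes of smallest p. Others were chosen after their values were seen: Col19a1 in gut, Col13a1, and the genes set beside Ttr. Same-numbered cecum and colon libraries deviated together (correlation 0.139 to 0.599 over all pairs in the 4 groups). The main fit did not use this pairing, and the replicate number entered as a block only in an alternative fit.

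Alternatives were a pseudocount of 0.1, no filter on low values, median-of-ratios scaling, the replicate number as a block, leaving out each library, and leaving out the low-Ttr libraries. Promoter sequences come from RefSeq (GRCm38.p6), and gene positions from GENCODE M21.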

Additional observations from a re-analysis of the deposited data

Results flagged for a closer look

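Among the 3 most abundant collagen genes of each solid tissue, 1 of 48 groups held a library far from the rest of its group. Col25a1 in 8-week CON hippocampus replicate 2 read 10.14 FPKM, with the other 4 libraries at 7.32 to 7.82. The gap to the nearest library was 0.823 of the group's range, above the 95% critical value of 0.710 for 5 samples. Chance alone marks about 1 group in 20. All 5 CON libraries lay above all 5 CRD libraries, so the order of the groups does not rest on this one.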

How the results depend on the processing

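No collagen gene was called for the CRD schedule in any tissue, at either age or between ages, under any alternative run. Of 1366 recomputed values of 83 named results, 1320 kept their direction and their side of the threshold, 29 lost a call, 8 gained one and 9 turned direction. Only 21 of the 83 results were called in the main fit, so only those could lose a call. Of the 1320 values, 973 came from fits that left out 1 library. The counts that moved by over 1.5 times were those of age in the brain. In hippocampus CON the count was 2 with the replicate number as a block and 2 without the low-Ttr libraries, against 0, while the share of all genes called was 1.55% and 6.98%, against 0.468%. In hypothalamus CON it was 13 with the block (21.9% of all genes), and 0 to 14 with libraries left out in turn (1.29% to 27.6%), against 3 (9.95%). In hypothalamus CRD it was 1 with no filter (6.01%), 4 with the block (17.1%), and 1 to 6 with libraries left out (2.58% to 20.8%), against 2 (12.3%). The numbers did not pair the libraries in these comparisons, and the cause was not tested. The directions that turned were all of Col3a1 under CRD, none of them called: -0.36 to 0.068 in 8-week cecum and -0.12 to 0.33 in 18-month colon with libraries left out. In 8-week colon it was -0.034 under scaling, -0.0014 with the block and -0.084 to 0.30 with libraries left out. Between gut tissues, 20 to 23 genes were called with libraries left out, 30 with no filter and 24 with the block, against 22. Between brain tissues the count was 16 to 20, 27 and 21, against 19. Same-numbered hippocampus and hypothalamus libraries did not all deviate together, so the block there is a count only. FPKM hold no depth, so precision of single low values cannot be given.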
